A study of Sus scrofa with 11 samples.

Results

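The 10 genes listed encode enzymes that break down or interconvert amino acids, or that use their nitrogen and methyl groups: BCAT2, BCKDHA, BCKDHB, GLUL, GOT1, GOT2, OAT, BHMT, ADSL and GATM. A probe set, a group of short probes on the array that is read as 1 value, was taken as a member where the platform annotation gave it 1 gene symbol and that symbol was on the list. This gave 12 probe sets of 9 genes, of 23999 probe sets tested and 6765 genes with a probe set of their own, with 3 probe sets for GLUL and 2 for ADSL. GATM matched no probe set and is not analysed here. BHMT and ADSL are also among the genes that the study itself called in the same pigs, so their differences are not independent evidence.

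Expression was measured in the *M. semimembranosus* (SM), a hind leg muscle, of 11 purebred Duroc gilts fed a high protein (HP, n = 6) or a low protein (LP, n = 5) diet for 63 days from about 10 weeks of age. The HP diet held 217 g/kg crude protein and 13.0 g/kg total lysine, and the LP diet held 128 g/kg crude protein and 7 g/kg total lysine, at the same energy content. RNA of each pig was hybridised to its own Affymetrix Porcine Genome array, with no pooling, and the comparison asks how SM muscle expression differs between the diets. The gilts were blocked on initial weight before they were assigned to a diet, penned in 2 groups and fed freely. Block, pen and day of slaughter are not given per pig, so no fit could adjust for them. Whether pen or day of slaughter coincided with diet cannot be checked, and their part in the differences was not tested.

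In muscle the first step of branched-chain amino acid breakdown is a transfer of the amino group to 2-oxoglutarate by BCAT2, and the committed step is the oxidative decarboxylation of the resulting keto acid by the branched-chain keto acid dehydrogenase complex. The glutamate so formed feeds the aspartate aminotransferases GOT1 and GOT2, and glutamine synthetase (GLUL), which loads ammonia onto glutamate and makes muscle a source of glutamine. OAT links ornithine with glutamate and proline, ADSL works in purine synthesis and in the purine nucleotide cycle that releases ammonia from aspartate, and BHMT returns a methyl group from betaine to homocysteine and is known mainly as an enzyme of liver and kidney.

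Of the 12 member probe sets, 1 passed an unadjusted p of 0.05 or less in limma, BHMT, which was higher in LP. Over the whole array 5.11% of probe sets passed that threshold, with 2.15% higher and 2.97% lower in LP, and none passed after Benjamini-Hochberg adjustment over all 23999, the smallest adjusted p being 0.644 and 1227 probe sets having an unadjusted p of 0.05 or less. By the exact permutation test over pigs, 1 member passed, again BHMT, against 5.40% of the array. The median difference, LP minus HP, was 0.11 on the log2 scale over the 12 member probe sets and -0.02 over all probe sets tested. Of the members 8 were above 0 and 4 below, where 52.6% of the array was below 0. Read by the brightest probe set of each gene, 6 genes lay above 0 and 3 below, with a median of 0.10. In the alternatives the member count was 4 after quantile normalisation (6.09% of the array), 3 with a trended prior (5.12%), 3 with array weights (6.66%), 3 with the spike-in mean as a covariate (6.85%), 3 without HP replicates 1, 2 and 4 (7.85%) and 0 with the replicate number as a block (5.13%). The diets overlapped in all 12 probe sets, whereas over the array 0.579% of probe sets did not overlap.

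All levels below are the deposited log2 levels, whose unit is set within a probe set, so that levels of different genes are not compared. The median level was 6.72 on every array, and background on an array was set at the brightest of its 23 negative control probe sets. Levels above it were found for 74.9 to 85.3% of the probe sets per array, and for 10 of the 12 members on all 11 arrays. The number of arrays limits the precision: the exact test over 462 splits of the pigs cannot give a p under 0.00216. All 15 probe sets of 14 measured skeletal muscle fibre markers exceeded the negative controls on every array. In whole muscle, fewer cells of a type and less RNA per cell cannot be told apart.

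**Figure D1:**
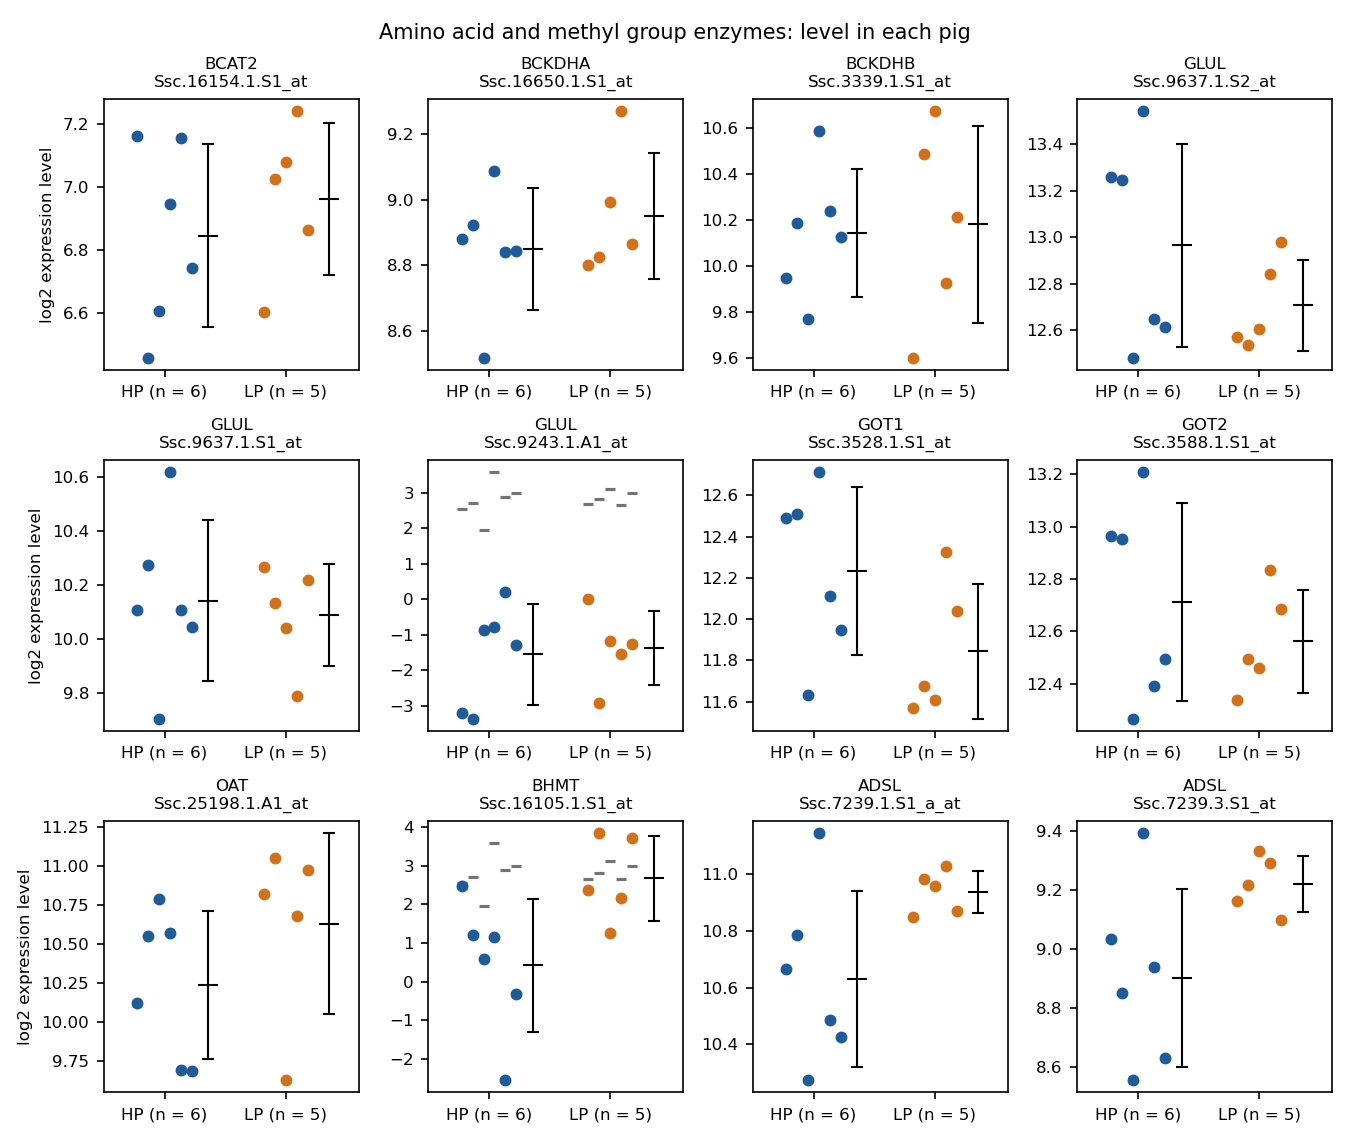
Deposited log2 level (y axis) of each of the 12 member probe sets in the 6 HP and 5 LP pigs, 1 panel per probe set with its own scale and with gene and probe set identifier as its title. Points are pigs, bars are means and the whiskers are 1 SD. Grey dashes in the panels of BHMT and the dim GLUL probe set mark the highest negative control on each array, which only LP replicates 2 and 5 exceeded for BHMT.

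BCAT2, the mitochondrial branched-chain aminotransferase, had levels of 6.46, 6.85 and 7.16 as lowest, median and highest of the 6 HP pigs. The 5 LP pigs had BCAT2 levels of 6.60, 7.03, 7.08, 7.24 and 6.86. Apart from LP replicate 4, just above it, the LP pigs lay within the HP range, and the difference was 0.12 (SE 0.17, 95% interval -0.26 to 0.49, limma p = 0.506, exact permutation p = 0.485).

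BCKDHA and BCKDHB encode the alpha and beta subunits of the E1 component of the keto acid dehydrogenase, which carries out the decarboxylation itself. BCKDHA had a lowest, median and highest level of 8.52, 8.86 and 9.09 in HP. In LP its levels were 8.80, 8.83, 8.99, 9.27 and 8.86, so that only LP replicate 4 lay above the HP range. The BCKDHA difference of 0.10 (SE 0.13, 95% interval -0.19 to 0.40) did not pass (limma p = 0.458, exact permutation p = 0.413). BCKDHB ranged from 9.77 through a median of 10.16 to 10.58 in HP, and was 9.60, 10.49, 10.67, 9.93 and 10.21 in LP. The LP pigs spread more widely than the HP pigs and past both ends of their range, with a difference of 0.04 (SE 0.21, 95% interval -0.43 to 0.50, limma p = 0.860, exact permutation p = 0.859).

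Around these 3 enzymes, none of the 21 probe sets of 14 measured genes of branched-chain amino acid breakdown passed in either direction, with 10 above 0, 11 below and a median of -0.04. The remaining parts of the same complex and its regulator had differences of -0.23 for DBT, the E2 core, -0.21 for DLD, the E3 subunit shared with other dehydrogenases, and 0.08 for BCKDK, the kinase that switches the complex off (limma p = 0.210, 0.188 and 0.600, exact permutation p = 0.223, 0.154 and 0.578). These 3 genes were singled out after their values had been seen.

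GOT1, the cytosolic aspartate aminotransferase of the malate-aspartate shuttle, had a lowest, median and highest level of 11.63, 12.30 and 12.71 in the 6 HP pigs. In LP its levels were 11.57, 11.68, 11.61, 12.33 and 12.04. Replicates 1 to 3 of LP lay at the bottom of the HP range or just below it, and 4 of 5 LP pigs were below the HP mean. The difference was -0.39 (SE 0.22, 95% interval -0.88 to 0.10), 1.31-fold higher in HP, and it did not pass (limma p = 0.107, exact permutation p = 0.108). Without HP replicate 3 it was -0.51 (limma p = 0.0306, exact permutation p = 0.0397), where 6.34% of the array passed in limma. Without LP replicate 4 it was also -0.51 (limma p = 0.0452, exact permutation p = 0.0619), where 4.73% of the array passed in limma. Either array alone decided the side of the threshold.

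GOT2, its mitochondrial counterpart, ranged from 12.26 through 12.72 to 13.21 in HP and was 12.34, 12.49, 12.46, 12.83 and 12.69 in LP. Every LP pig lay inside the HP range, and the difference was -0.15 (SE 0.19, 95% interval -0.57 to 0.27, limma p = 0.446, exact permutation p = 0.437). Once the diet means were removed, the levels of GOT1 and GOT2 over the 11 arrays correlated with a Pearson r of 0.945 (permutation p = 8e-05, adjusted over 15 relations 6e-04, Spearman rho 0.882, permutation p = 0.0016), and r was 0.929 without the 2 arrays farthest from the median. Both also followed the brightness of the spike-in controls described below (r of 0.907 and 0.871), and over the 770 probe sets with a mean level above 12 the median r with them was 0.915. The part of array brightness in the relation of GOT1 with GOT2 was not tested. Within an array the GOT1 level relative to GOT2 was lower in LP by a difference of -0.24 in the log2 ratio, with 5 of 5 LP pigs below the HP mean but the diets overlapping. This ratio, 1 of 4 formed after the levels had been seen, is given as a description without a test, and neither enzyme passed on its own. It was -0.30 after quantile normalisation and -0.23 without HP replicates 1, 2 and 4.

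GLUL was read by 3 probe sets. The brightest, at a lowest, median and highest level of 12.48, 12.95 and 13.54 in HP, gave 12.57, 12.54, 12.61, 12.84 and 12.98 in LP. Of the HP pigs, 3 lay above every LP pig, while no LP pig lay above the HP range. The difference was -0.26 (SE 0.21, 95% interval -0.72 to 0.21, limma p = 0.247, exact permutation p = 0.247). A second GLUL probe set averaged 10.14 ± 0.30 (SD, n = 6) in HP and 10.09 ± 0.19 (SD, n = 5) in LP, with a difference of -0.05 (SE 0.16, 95% interval -0.41 to 0.31, limma p = 0.755, exact permutation p = 0.801). The third was below the highest negative control on every array, at means of -1.55 in HP and -1.38 in LP, and supports no statement on GLUL.

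OAT, the mitochondrial ornithine aminotransferase, had a lowest, median and highest level of 9.69, 10.34 and 10.79 in HP. In LP its levels were 10.82, 11.05, 9.63, 10.68 and 10.98. LP replicates 1, 2 and 5 lay above every HP pig, and LP replicate 3 lay below every one. The difference of 0.40 (SE 0.30, 95% interval -0.26 to 1.06), 1.32-fold, did not pass (limma p = 0.214, exact permutation p = 0.232). Without LP replicate 3 it was 0.65 and passed (limma p = 0.0248, exact permutation p = 0.0333, against 4.58% of the array in limma), so that the OAT call rested on that pig.

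Among the 21 probe sets of 14 measured genes of arginine, ornithine, proline and polyamine metabolism, none passed, with 12 above 0 and a median of 0.10. ARG2, the mitochondrial arginase that makes ornithine, had differences of 0.93, 1.03 and 0.70 in its 3 probe sets, none of which passed (limma p = 0.0992, 0.106 and 0.191, exact permutation p = 0.130, 0.147 and 0.240). Without LP replicate 1 the first and second were 1.36 and 1.53 and passed in limma, where 4.65% of the array passed. ARG2 was singled out after its values had been seen. Of the glutamate, glutamine and alanine list, 7 of 9 probe sets of 7 measured genes were above 0, with a median of 0.35, and none passed. Only 5 of these 9 probe sets exceeded the negative controls on all arrays, and PHGDH exceeded them on none, so dim signals enter this median.

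**Figure D2:**
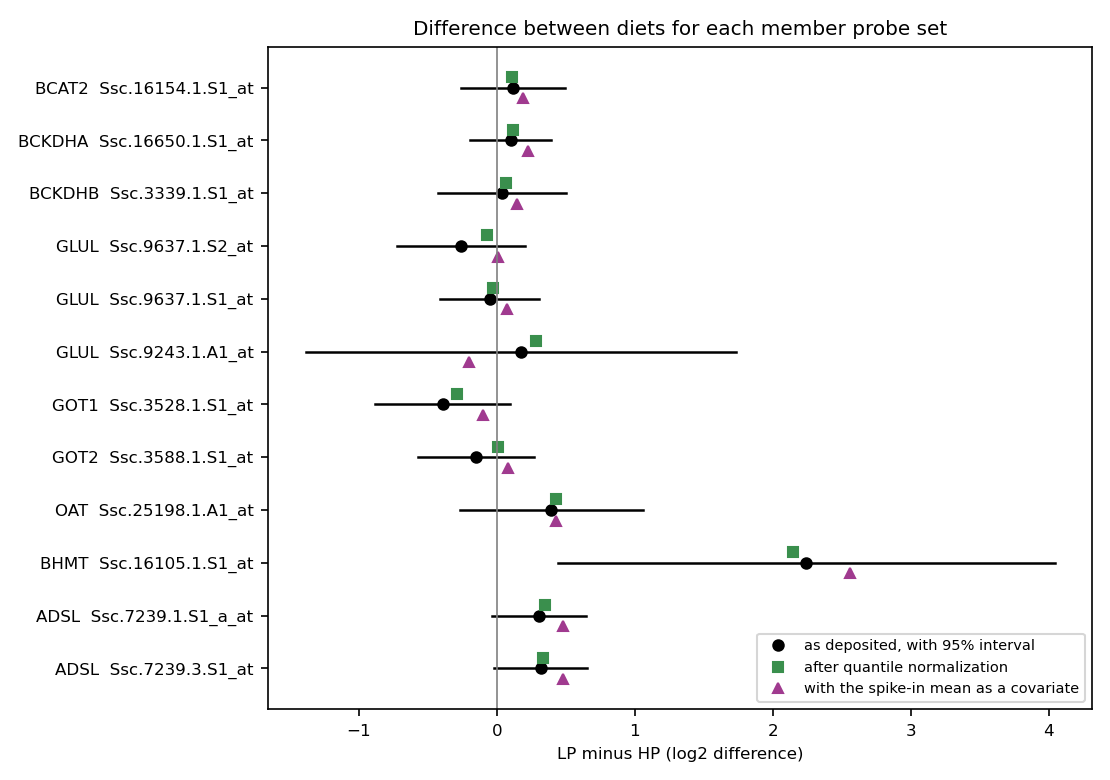
LP minus HP difference on the log2 scale (x axis) for the 12 member probe sets (y axis), with 95% intervals from limma. Circles are the deposited levels, squares the values after quantile normalisation and triangles those with the spike-in mean as a covariate. The interval of the deposited levels excludes 0 only for BHMT (2.24, from 0.44 to 4.04), and both ADSL probe sets (0.31 and 0.32) reach just below 0.

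ADSL, adenylosuccinate lyase, was read by 2 probe sets that gave nearly the same picture. The first had a lowest, median and highest level of 10.27, 10.58 and 11.15 in HP, and 10.85, 10.98, 10.96, 11.03 and 10.87 in LP. All 5 LP pigs were above the HP mean, and 5 of 6 HP pigs were below the lowest LP pig. HP replicate 4 was the exception, above every LP pig. The difference was 0.31 (SE 0.15, 95% interval -0.03 to 0.65), 1.24-fold, which did not pass (limma p = 0.0715, exact permutation p = 0.0649).

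The second ADSL probe set ranged from 8.56 through 8.90 to 9.39 in HP and was 9.16, 9.22, 9.33, 9.29 and 9.10 in LP. Here too 5 of 6 HP pigs were below the lowest LP pig and HP replicate 4 was above the highest. The difference was 0.32 (SE 0.15, 95% interval -0.02 to 0.66), 1.25-fold (limma p = 0.0606, exact permutation p = 0.0541). Without HP replicate 4 the differences were 0.41 and 0.42 and both passed (limma p = 0.00610 and 0.00627, exact permutation p = 0.00794 in both), where 6.12% of the array passed in limma. The LP pigs were also closer together, with an SD of 0.08 and 0.10 (n = 5) in the first and second probe set against 0.31 and 0.30 (n = 6) in HP, a difference in spread that was not tested. It was not particular to ADSL. The LP SD was also the smaller for the brightest GLUL probe set (0.19 against 0.44) and GOT2 (0.20 against 0.38). For BCKDHB (0.43 against 0.28) and OAT (0.58 against 0.47) it was the larger. Both ADSL probe sets read the same RNA and are not separate evidence.

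AMPD1, the muscle AMP deaminase that works next to ADSL in the purine nucleotide cycle, had a difference of -0.20 (SE 0.19, limma p = 0.316, exact permutation p = 0.305). ADSSL1 and ADSS, of the same cycle, had differences of -0.10 and 0.02 (ADSSL1) and 0.09 (ADSS). None of these passed in limma, and no ratio to them was formed. Relative to AMPD1 on the same array, the first ADSL probe set was higher in LP by 0.50 in the log2 ratio, and the diets did not overlap. Over the array 0.579% of single probe sets did not overlap, a share that was not worked out for ratios. AMPD1, at means of 13.36 in HP and 13.16 in LP, is among the levels above 12, where the median r with the spike-ins was 0.915. The part of array brightness in this ratio was not tested. The LP pigs lay 0.32 to 0.71 above the HP mean and the HP pigs between -0.20 and 0.18 of it. The ratio difference was 0.45 to 0.55 on leaving out each array in turn, 0.33 after quantile normalisation and 0.43 without HP replicates 1, 2 and 4. AMPD1, ADSSL1 and ADSS were picked after the levels had been seen. The ratio is thus a description with no test, and whether ADSL or AMPD1 moved it does not show. Among the other ratios formed, that of BCKDHA to BCKDHB differed by 0.06 and that of the brightest to the second GLUL probe set by -0.21. In both the diets overlapped.

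The list of the aspartate, malate shuttle and purine nucleotide cycle genes held 13 probe sets of 11 measured genes, 7 above 0 and 6 below. In limma 1 of them passed, ASNS, as higher in LP, and none passed as lower. By the exact permutation test a probe set of ASNSD1, described below, also passed, as lower (-0.17, exact permutation p = 0.0130). ASNS, asparagine synthetase, makes asparagine from aspartate with glutamine as the nitrogen donor, and like BHMT and ADSL it is among the study's own calls in these pigs. Its levels in HP were 11.56, 10.35, 10.85, 11.10, 10.78 and 10.58. In LP the ASNS levels were 11.79, 11.50, 11.82, 11.39 and 11.05. Of these, 4 lay above 5 of the 6 HP pigs, and HP replicate 1 lay among the LP pigs. The ASNS difference was 0.64 (SE 0.22, limma p = 0.0158, exact permutation p = 0.0260), and it passed in 21 of 21 alternatives tried.

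BHMT had a difference of 2.24 on the log2 scale (SE 0.82, 95% interval 0.44 to 4.04, limma p = 0.0193, adjusted over all probe sets 0.947, exact permutation p = 0.0303). Its lowest, median and highest level in HP was -2.54, 0.88 and 2.48, and in LP it was 2.37, 3.84, 1.27, 2.16 and 3.71. All 5 LP pigs were above the HP mean and 5 of 6 HP pigs were below the lowest LP pig, while HP replicate 1 lay among the LP pigs. These are dim signals. BHMT exceeded the highest negative control on 0 of 6 HP arrays and on 2 of 5 LP arrays, replicates 2 and 5, so that HP has only an upper bound. Measured against that bound the fold came to less than 1 and none is given. The brightest HP pig, replicate 1 at 2.48, lay just under its own negative control at 2.55.

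The BHMT call depended on how dim values were handled. With values below the 20th percentile of each array raised to it, the difference was 0.45 (limma p = 0.0665, exact permutation p = 0.119), where 5.02% of the array passed in limma. On leaving out each of the 11 arrays in turn BHMT passed in limma each time, with a highest p of 0.0497 against an exact permutation p of 0.0762 for the same fit, without LP replicate 2, where 4.44% of the array passed in limma. The exact p in these fits ran from 0.00794 to 0.0762 and was over 0.05 in 7 of them. Of 19 probe sets of liver markers, 2 exceeded the negative controls on all arrays, 10 on some and 7 on none. Of the 16 genes 11 exceeded them on some array, and APOH, TAT, AMBP, CPS1 and HPX on none. CPS1 alone passed as higher in LP, with 0 arrays above the negative controls. ALB, the albumin gene, had a difference of 0.14, and the summed liver marker level was 8.23 to 9.05 in HP and 8.62 to 8.92 in LP. The part of dim signal and of liver transcripts in the BHMT difference was not tested.

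Of the 24 probe sets of 14 measured genes of the methionine cycle, betaine and one-carbon metabolism, none passed, with 12 above 0, 12 below and a median of 0.00. MAT2B, the regulatory subunit of the methionine adenosyltransferase that makes S-adenosylmethionine, had differences of -0.31, -0.40 and -0.44 in 3 probe sets (limma p = 0.0571, 0.109 and 0.147, exact permutation p = 0.0498, 0.119 and 0.173). Its catalytic partner MAT2A had a difference of -0.15, and AHCY, which hydrolyses S-adenosylhomocysteine to homocysteine, -0.16 and 0.02. MTHFD1, a folate enzyme of the one-carbon pool, had differences of 0.84, 0.45 and 0.89 (limma p = 0.0649, 0.0794 and 0.131, exact permutation p = 0.0887, 0.0779 and 0.158). These genes were singled out after their values had been seen. In the creatine list, where GATM would have stood, 0 of 5 probe sets passed in limma and 0 by the exact permutation test, GAMT, the methyltransferase that completes creatine, being at a difference of 0.02.

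**Figure D3:**
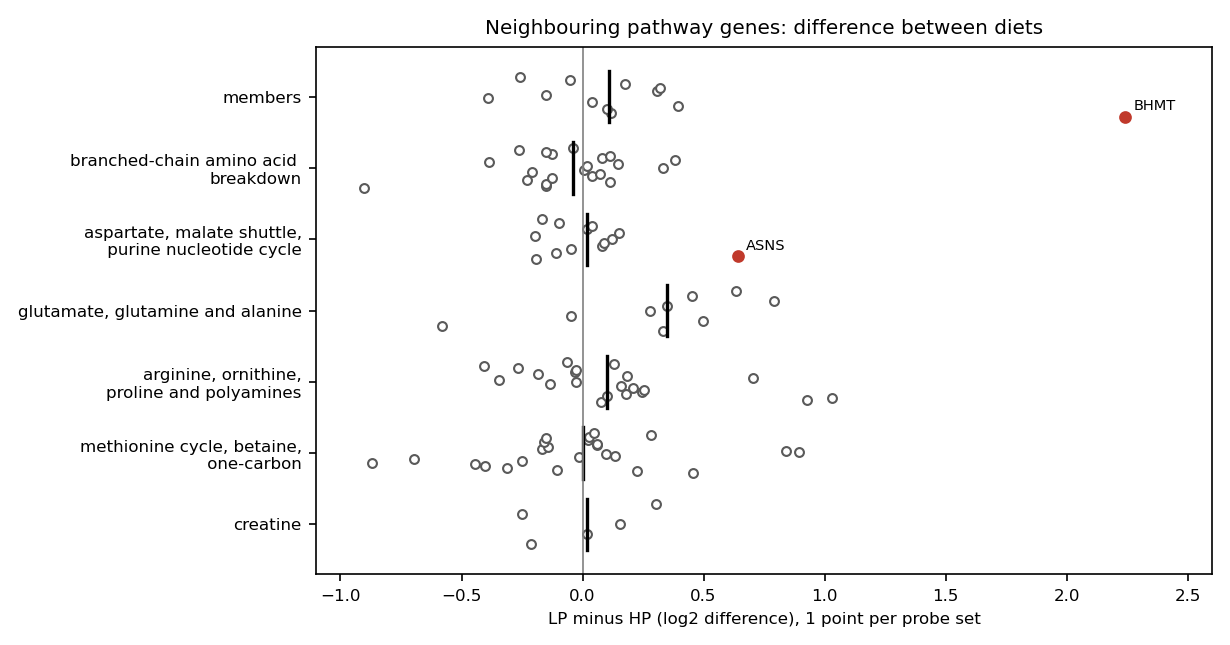
LP minus HP difference on the log2 scale (x axis) of every probe set of the members (top row) and of the 6 pathway lists (y axis), with points as probe sets and a bar at the median of each row. The called probe sets, BHMT and ASNS, are filled and named, and the list medians run from -0.04 in branched-chain amino acid breakdown to 0.35 in the glutamate, glutamine and alanine list. In that last list 5 of 9 probe sets exceeded the negative controls on all arrays.

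In all, 1 of 93 probe sets of 65 measured genes in the 6 pathway lists passed in limma, 1.08% against 5.11% of the array. By the exact test 3 of the 93 passed, ASNS, MAT2B and ASNSD1, where 5.40% of the array passed. ASNSD1 is named for its likeness to ASNS, and the study also called it, as lower in LP. The ASNSD1 probe set that passed had a difference of -0.17 (limma p = 0.0995, exact permutation p = 0.0130). The other ASNSD1 probe set had a difference of 0.15 (limma p = 0.480, exact permutation p = 0.550). Of the uncalled members, 9 probe sets had a 95% interval that excluded a 2-fold difference in either direction, so that for these the arrays bound the difference.

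**Figure D4:**
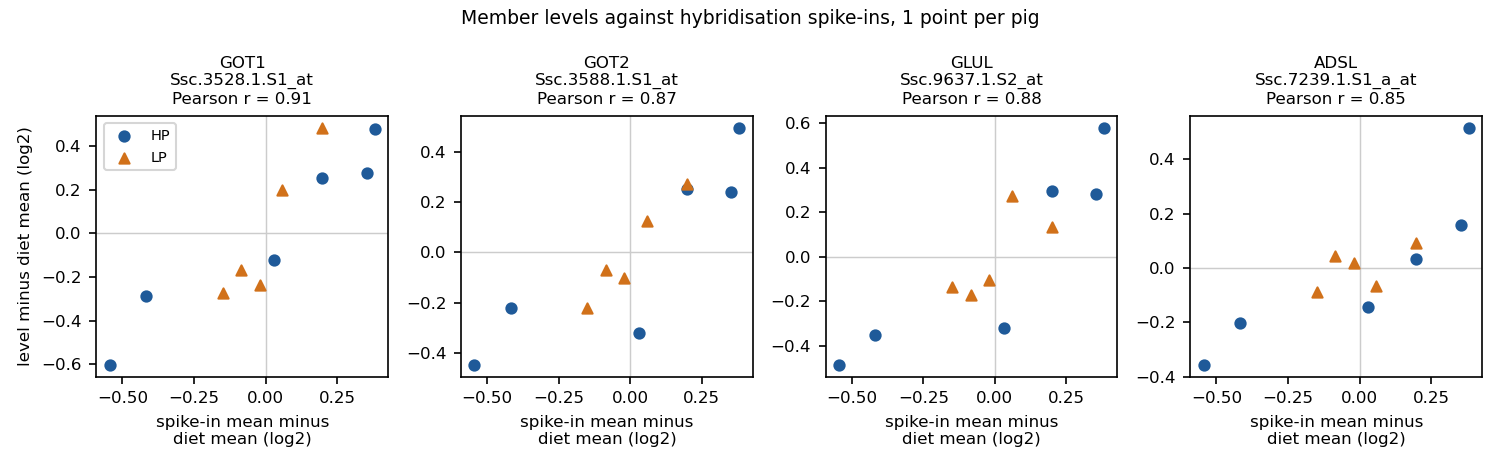
Level of GOT1, GOT2, the brightest GLUL and the first ADSL probe set (y axis) against the mean of 27 spike-in control probe sets (x axis), both on the log2 scale and with the mean of each diet removed, 1 point per pig and 1 panel per probe set. All 4 rise with the spike-ins over the 11 arrays, with a Pearson r of 0.848 for ADSL to 0.907 for GOT1.

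Several members followed the brightness of the arrays. The spike-in controls, RNAs added in known amounts, had a mean level of 11.30 to 12.22 in HP and 11.43 to 11.77 in LP (difference -0.26, exact permutation p = 0.186). With diet means removed, GOT1 correlated with the spike-in mean at a Pearson r of 0.907 over the 11 arrays (permutation p = 5e-05, adjusted over 15 relations 6e-04, Spearman rho 0.936, permutation p = 9e-05), and at 0.884 without HP replicates 3 and 6, the arrays farthest from the median. GOT2 gave an r of 0.871 (permutation p = 0.00258, adjusted 0.00774, rho 0.855, permutation p = 0.00519, 0.860 without those arrays). The brightest GLUL probe set gave 0.882 (permutation p = 0.00177, adjusted 0.00664, rho 0.918, permutation p = 0.001, 0.826 without them), and the first ADSL probe set 0.848 (permutation p = 0.00785, adjusted 0.0168, rho 0.836, permutation p = 0.0108, 0.749 without them). BCKDHA gave 0.757 (permutation p = 4e-04, adjusted 0.002, rho 0.764, permutation p = 0.00387, 0.752 without them). The second ADSL probe set gave 0.790 (permutation p = 0.0267, adjusted 0.0501, 0.543 without them) and the second GLUL probe set 0.589 (permutation p = 0.12, 0.256 without them). Taken within HP and within LP, r was 0.836 and 0.268 for this ADSL probe set. For this GLUL probe set it was 0.845 and -0.799, of opposite sign. BCAT2, BCKDHB, OAT, BHMT and the dim GLUL probe set had an r of 0.321, 0.369, 0.0805, 0.252 and -0.35, with unadjusted permutation p from 0.201 to 0.798. Over all probe sets the median r was 0.153, but over the 770 with a mean level above 12, where GOT1, GOT2 and the brightest GLUL probe set belong, it was 0.915.

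With the spike-in mean as a covariate, an alternative in which 6.85% of the array passed, the differences of GOT1, GOT2 and the brightest GLUL probe set were -0.10, 0.08 and 0.01, and none passed in limma. The ADSL differences were 0.48 in both probe sets, which passed in limma, and the BHMT difference was 2.56, which also passed. Those of BCKDHA and OAT were 0.23 and 0.43, and neither passed. The GOT1 difference was below 0 in all 21 alternatives, from -0.51 to -0.05, and GOT2 and GLUL changed sign in some. The ADSL differences were above 0 in all alternatives and passed in 6 and 8 of 22. Among the marker lists, 14 of 15 muscle fibre probe sets were below 0 (median -0.25), where 52.6% of the array was below 0. Of these, 2 passed as lower in LP, both of CA3. Of the fibroblast markers 9 of 10 were below 0 (median -0.31) and of the macrophage markers 8 of 8 (median -0.31), with none passing in limma. Of 11 adipocyte probe sets (median 0.01) 1 passed, of LEP and higher in LP, with 4 of 6 HP arrays above background, while the other LEP probe set had a difference of 0.74 and did not pass. A dim TEK probe set passed as higher among 19 endothelial ones, and 0 of 3 red blood cell probe sets passed in limma. The summed level was 16.8 to 17.7 in HP and 16.8 to 17.3 in LP for the muscle fibre markers, 12.8 to 13.5 and 12.9 to 13.5 for the adipocyte markers, 12.8 to 13.6 and 12.9 to 13.1 for the fibroblast markers, and 9.78 to 11.2 and 9.86 to 10.6 for the macrophage markers. The part of array brightness in the marker differences was not tested, nor was the part of these cell types in the members' differences.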

How the data were processed

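Total RNA from the SM muscle of each pig was amplified and hybridised to its own array. Each deposited value is a log2 level of 1 probe set, computed by the authors in R and Bioconductor, who called differences with puma. How background was corrected and arrays were normalised is not given in the sources used here. The median is the same on every array, and levels were used as deposited. The 24123 probe sets include 124 controls, which were not tested, and of the other 23999 10069 had 1 gene symbol in the platform annotation, 198 several and 13732 none. The Entrez identifiers of all 12 member probe sets carry the same current symbol.

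LP minus HP was fitted for every probe set in R 4.3.3 and limma 3.58.1, over all 11 arrays without covariates, with moderated two-sided tests and a constant prior. A p of 0.05 or less before adjustment, the threshold of the study, made a call, with Benjamini-Hochberg adjustment over all probe sets beside it. The puma method needs probe-level data, which were not used here. Single differences were also tested by an exact two-sided permutation of the diet labels over the 462 ways to choose 5 of the 11 pigs. Correlations used 1e+05 random orders of the arrays, shuffled within each diet. The fit was tested on simulated data before use. The p-values measure the spread between pigs, of which each has 1 array.

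The members and gene lists were chosen with earlier results of these data known. Named are every member probe set, every called probe set of the pathway lists and any called marker, and other genes are said to be singled out. Expression showed no pairing of the pigs by the replicate numbers in the labels: the correlation of the deviations of same-numbered pigs was -0.07 to 0.08. This cannot decide whether the numbers follow the weight blocks, since a block need not leave a mark on expression. The alternatives were quantile normalisation, median centring, leaving out dim probe sets, a floor on dim values, a trended prior, array weights, the replicate block, averaging the probe sets of a gene, the exact test, the spike-in mean as a covariate and leaving out each array. Leaving out HP replicates 1, 2 and 4, where the strongest probe sets were brightest, was added after the values had been seen.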

Additional observations from a re-analysis of the deposited data

Results flagged for a closer look

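OAT in LP replicate 3 stood at a level of 9.63, and the nearest of the other LP pigs was at 10.68. This gap was 0.740 of the range of the LP pigs, above Dixon's 95% critical value of 0.71 for 5 arrays. It was the only 1 of 24 groups of pigs searched, 12 probe sets in each diet, that passed this limit, and chance passes about 1 in 20.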

How the results depend on the processing

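The median member difference of 0.11 stayed above 0 under every alternative run, from 0.04 (without HP replicate 2) to 0.16 on leaving out each array and from 0.07 to 0.17 otherwise. The count of 1 member probe set called was 1 to 3 on leaving out each array (4.44 to 6.34% of the array) and 4 after quantile normalisation (6.09%). It was 3 each with a trended prior (5.12%), with array weights (6.66%), with the spike-in covariate (6.85%) and without HP replicates 1, 2 and 4 (7.85%). With the floor (5.02%) and without probe sets below the median (5.92% of those tested) it was 1, the second ADSL probe set and not BHMT. BHMT did not pass with the floor and was not tested in the other. The pathway count of 1 was 1 to 5 on leaving out each array, 4 each with quantile normalisation, without probe sets below the median, with the floor and with the trended prior, 3 each with array weights, with the exact test and without HP replicates 1, 2 and 4, and 5 with the spike-in covariate. Over the array, 1227 calls became 708 without probe sets below the median, where fewer were tested, and 1884 without HP replicates 1, 2 and 4. Calls higher in LP were 515 of 1227, 905 of 1643 with the spike-in covariate and 1129 of 1884 without those 3 arrays. Under the replicate block, for which HP replicate 6 has no partner and is left out, 0 members, 4 pathway and 1232 array probe sets were called, and BHMT, at 2.09, no longer passed. GOT1 passed after quantile normalisation (-0.29, limma p = 0.0489, exact permutation p = 0.0411). Signs turned for GOT2 (0.010 with quantile normalisation, 0.082 with the spike-in covariate, 0.18 without HP replicates 1, 2 and 4), for the brightest GLUL probe set (0.0077 and 0.13 under the last 2), for the second (0.077 and 0.14, and -0.14 to 0.043 on leaving out each array), for the dim one (-0.20 and -0.73, -0.045 as the gene mean, and -0.19 to 0.56 on leaving out each array) and for BCKDHB (-0.085 to 0.18 on leaving out each array). The cause was not tested. Low signal limits BHMT and the dim GLUL probe set.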
